A study of Mus musculus with 2 samples.

Results

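The 43 genes described here encode the standard subunits, activators, inhibitor and assembly chaperones of the proteasome, chosen by gene symbol (Psma1 to Psma7, Psmb1 to Psmb7, Psmc1 to Psmc6, the Psmd genes, Psme1 to Psme4, Psmf1 and Psmg1 to Psmg4) from the 32285 genes of the files. All 43 were placed by the GENCODE annotation of GRCm38, as protein-coding genes on 16 chromosomes. No measured value entered the rule. They were followed across the cells of 2 mouse blood libraries, 1 from animals of 2 months (young) and 1 from animals of 24 months (old), both labelled male, in a study of senescent neutrophils in aging. The strain and the number of animals behind each library are not given in the sources used here. In both libraries red cells had been lysed, live CD45+ CD11b+ Ly6G+ cells sorted, and single cells captured on beads that put a cell barcode and a unique molecular identifier (UMI) on each captured RNA. The labels name the BD Rhapsody system, while the file headers name Cell Ranger 7.2.0, a program for another platform, and the barcodes have 16 bases; the sources used here do not settle which applies. Each age is represented by 1 library, so no test and no p-value can be given for age, and all values describe these 2 libraries.

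The proteasome is the barrel-shaped protease that degrades ubiquitin-tagged proteins. Its 20S core is built from rings of alpha subunits, which form the gate, and rings of beta subunits, of which Psmb5, Psmb6 and Psmb7 carry the proteolytic sites. The 19S cap holds a ring of ATPases (Psmc genes) that unfold the substrate, and non-ATPase subunits (Psmd genes) that bind and remove ubiquitin. In cells exposed to interferon the catalytic subunits are exchanged for Psmb8, Psmb9 and Psmb10, the immunoproteasome, which favours peptides for MHC class I. Those 3 genes are not among the 43 and serve as a comparison.

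The young library held 13599 barcodes with 69599479 UMIs and the old 14334 with 128826996, a median of 4246 against 7266 UMIs per barcode. The members made up 129413 of the young and 297014 of the old UMIs. Levels are CPM, the UMIs of a gene per 1000000 UMIs summed over the cells of a class, and intervals in parentheses are exact 95% intervals (Poisson for a level, conditional binomial for a ratio) that cover counting error only. Clusters were built with the members and the comparison genes left out of the variable genes, and were named from marker lists. Neutrophil-like cells numbered 9940 young and 8572 old. A marker counted as carried by a cluster at 20 CPM or more and 25% or more of its highest cluster. The neutrophil-like clusters carried 7 to 10 of the 10 neutrophil markers. Smaller classes passed the sort: non-classical monocyte-like (462 young, 514 old), B (415, 166), T (179, 184), platelet (350, 605) and erythroid cell-like (122, 475). NK cell-like cells reached 50 only in the young library (212), and classical monocyte-like (928) and neutrophil progenitor-like cells (64) only in the old. Unnamed clusters held 1234 young and 1956 old cells. The libraries shared 53 barcodes. Against the male label, Xist, which female cells transcribe from their inactive X, had 160.4 CPM in young and 210.1 in old, while the Y-linked Eif2s3y had 0 UMIs in both and the Y-linked Ddx3y 19.1 against 7.51 CPM.

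Neutrophil-like cells held a low share of proteasome RNA among the white blood cells, at nearly the same level in both libraries. The 43 members summed to 1509 (1498 to 1520.4) CPM in young and 1571 (1562 to 1579.6) CPM in old neutrophil-like cells. Erythroid cell-like cells were lower, at 177 (153 to 203) and 264 (247 to 282) CPM. Every other named class with 50 or more cells was higher in its library. In the old library the sums went upwards from platelet-like cells at 2282 (2184 to 2384) through B cell-like at 2892 (2804 to 2981), non-classical monocyte-like at 3058 (3013 to 3104) and T cell-like cells at 3856 (3769.5 to 3944) CPM. Classical monocyte-like cells stood above these at 4503 (4472 to 4533) and progenitor-like cells at 7026 (6907 to 7147) CPM. In the young library platelet-like cells stood at 2509.5 (2364 to 2662), B cell-like at 3027 (2965 to 3089), non-classical monocyte-like at 3313 (3263 to 3364), NK cell-like at 3687 (3601 to 3775) and T cell-like at 4114 (4019 to 4209.8) CPM. Neighbours in these orders had intervals that did not overlap. The spread between animals is unknown, so the order of classes that lie close together is that of these libraries. The plot of summed members by class shows this order.

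**Figure D1:**
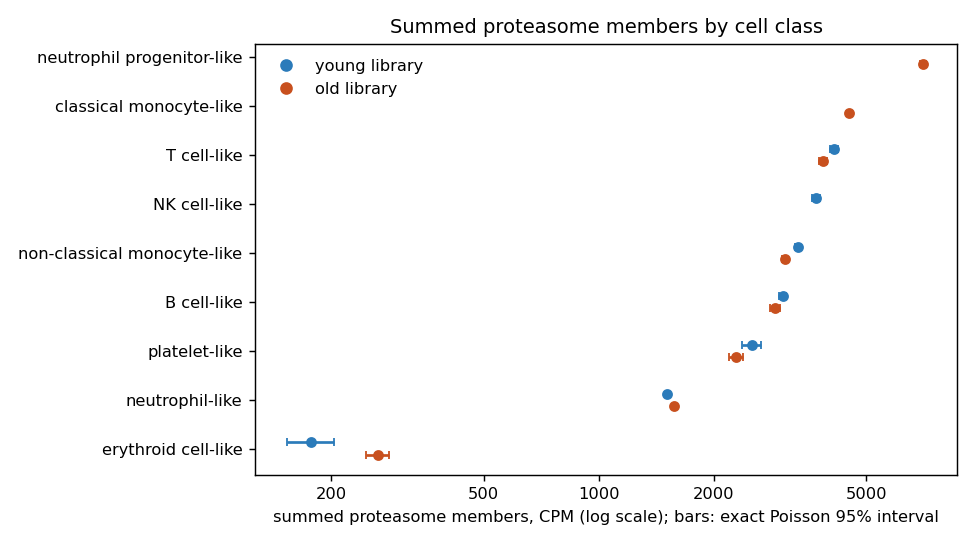
Summed CPM of the 43 members (x axis, log scale) in each named cell class with at least 50 cells, young library in blue and old library in orange, with exact Poisson 95% intervals. Neutrophil-like cells lie between the erythroid cell-like cells and all other classes, and the 64 progenitor-like cells of the old library lie highest.

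The difference from neutrophil-like cells ran through nearly all members, and many other genes shared it. A gene is counted as higher or lower in a pair of cell groups where its CPM differed at least 1.5-fold after 1 CPM was added, and a gene is measured where the pair's mean level reached 5 CPM. Over young neutrophil-like cells, 40 of 43 members were higher in T cell-like cells against 54.7% of all genes tested, and 41 of 43 in NK cell-like cells against 55.5%. In young non-classical monocyte-like cells it was 38 of 42 against 51.0% and in young B cell-like cells 35 of 43 against 52.7%. The old library gave 39 of 43 for T cell-like (64.3% of all genes), 37 of 41 for non-classical monocyte-like (64.0%), 34 of 43 for B cell-like (63.4%) and 41 of 43 for classical monocyte-like cells (61.0%). No member was lower in these comparisons, which share the neutrophil-like sums of their library. Of all genes, 22.6%, 20.9%, 17.3% and 22.2% were lower in the young T, NK, non-classical monocyte and B cell-like cells. In the old T, non-classical monocyte, B and classical monocyte-like cells the shares were 13.9%, 9.86%, 14.8% and 11.9%. Over neutrophil-like cells, the median member difference on the log2 scale in young non-classical monocyte-like cells was 1.25, against 0.62 over all genes tested. In the old library these values were 1.05 and 0.99.

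Depth and the abundance of other RNAs differed along with these levels. A neutrophil-like cell held a median of 4077 UMIs in young and 7450.5 in old blood, a T cell-like cell 8700.0 and 8694, and a progenitor-like cell 26574.5. S100a8 and S100a9, which encode the calprotectin subunits, took 10.7% of all UMIs of young and 29.6% of old neutrophil-like cells, and 8.17% or less in the old non-classical monocyte-like, B cell-like and T cell-like cells. Their part in the member levels as CPM was not tested beyond taking these genes out of the total. Without them and the granule genes the summed log2 ratio of non-classical monocyte-like over neutrophil-like cells was 0.99 in young and 0.54 in old, from 1.13 (1.11 to 1.16) and 0.96 (0.94 to 0.98). After each cell was thinned to 1000 UMIs, a neutrophil-like cell held a mean of 1.54 member UMIs in young and 1.504 in old, with none in 23.6% and 23.3% of cells. In erythroid cell-like cells, with medians of 9508 and 6902 UMIs, 86.8% and 74.9% of thinned cells had none. The erythroid cell-like cluster was led by globin genes, with Hbb-bt alone at 109529 CPM over both libraries. The part of globin RNA in its member levels was not tested. Before thinning 1.11% and 0.630% of neutrophil-like and 24.6% and 24.4% of erythroid cell-like cells had none. Thinning left out 58 young and 42 old neutrophil-like cells with fewer UMIs. A thinned progenitor-like cell held 6.98 member UMIs and a classical monocyte-like cell 4.64.

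**Figure D2:**
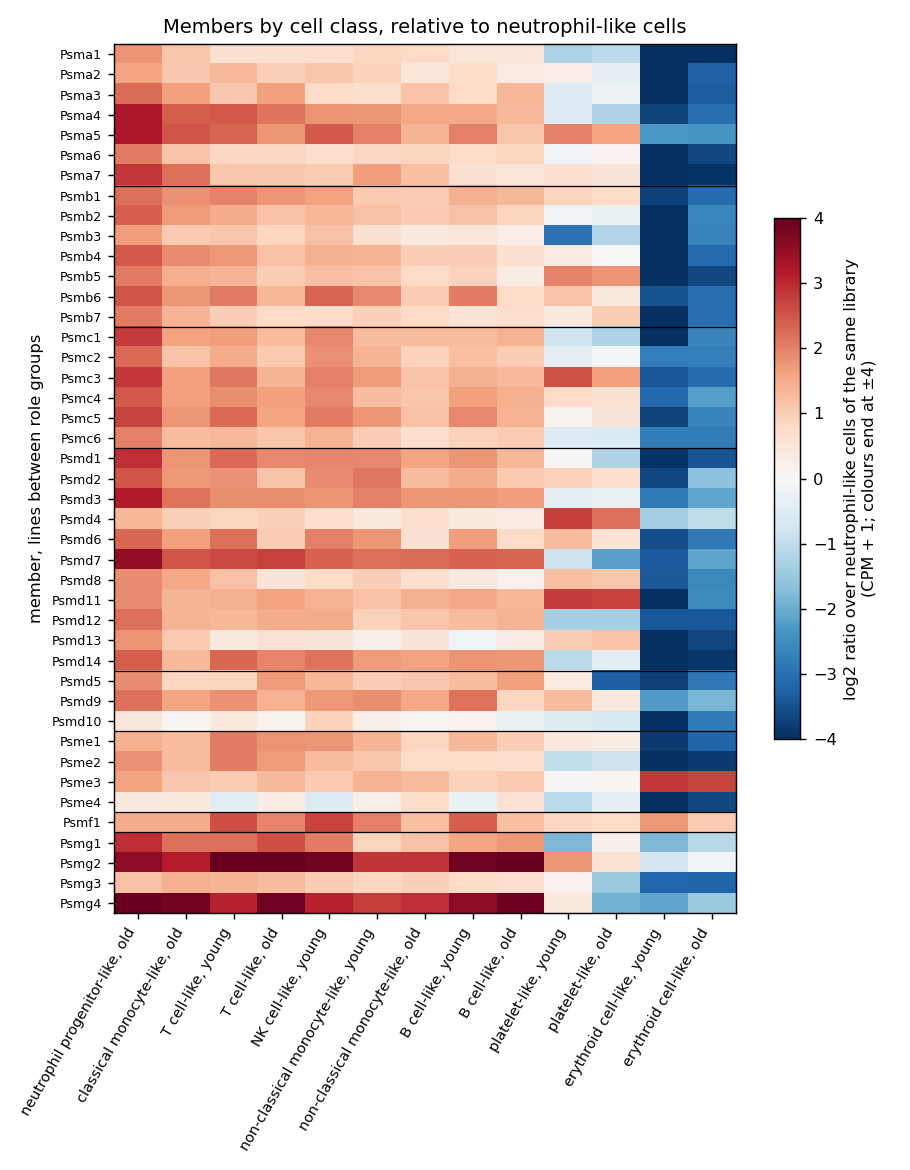
Each row is a member, in role groups, and each column a cell class of 1 library; colour is the log2 ratio of CPM + 1 over the neutrophil-like cells of the same library. Most cells of the map are red outside the platelet-like and erythroid cell-like columns, with Psme3 red in the erythroid cell-like columns and Psmd4 and Psmd11 red in the platelet-like ones.

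Between the ages, the summed members of neutrophil-like cells differed by 0.06 (0.04 to 0.07) on the log2 scale, old over young, a fold of 1.04. Of the 39 members measured, 3 were higher in old, against 7.53% of all genes, and 2 were lower, against 51.1%; the other 34 lay within 1.5-fold. The higher members were Psmb6, Psmd6 and Psmd2, and the lower ones Psma3 and Psme4. Psmd6 and Psmd2 fall outside the rule for named genes and were chosen after their values were seen. Psmf1, Psmg1, Psmg2 and Psmg4 fell under 5 CPM in the mean and were not counted. The median member stood at 0.12, against -0.60 over all genes tested, and the median gene at 50 CPM or more stood at -0.68. Relative to that median gene, 29 members were higher (23.7% of all genes) and 0 lower (12.6% of all genes). The direction of a member thus depends on the scale: as a share of UMIs the members were level, and relative to the median gene most were higher in old. UMIs per cell in member genes were 6.78 in young and 13.7 in old neutrophil-like cells, at medians of 4077 and 7450.5 UMIs in all. Without S100a8, S100a9 and the granule genes in the total, the summed ratio was 0.46; 16 of 40 members were higher (14.5% of all genes) and 0 lower (26.8%). The neutrophil-like cells of each age sat mostly in different clusters. Cluster 0 held 7588 of the 9940 young and 494 of the old cells, and cluster 1, led by Prok2, Wfdc17 and Ifitm1, held 84 young and 4746 of the 8572 old cells. The members summed to 1532 (1518 to 1545) CPM in young and 1634 (1574 to 1696) in old cells of cluster 0, and to 1399.9 (1297 to 1509) and 1522 (1509.9 to 1535) in those of cluster 1. The part of this difference in clusters in the age ratio was not tested beyond the ratios within ranges and clusters.

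**Figure D3:**
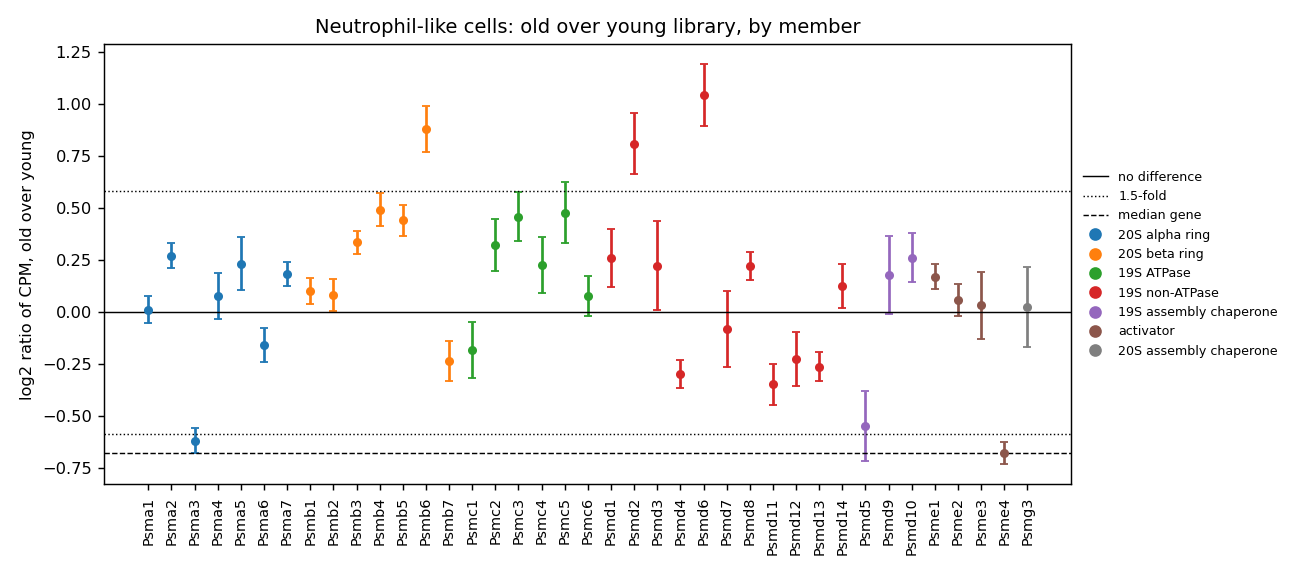
Log2 ratio of CPM, old over young, in neutrophil-like cells for the 39 measured members, coloured by role, with conditional binomial 95% intervals that cover counting error only. Most members lie between the 1.5-fold lines and above the dashed line of the median gene at -0.68; Psmb6, Psmd2 and Psmd6 lie above the upper line.

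The role groups had small summed differences between the ages, and members within a group differed in direction. The summed beta ring stood at 351 (346 to 357) CPM in young and 429 (424 to 434) CPM in old, a log2 ratio of 0.29 (0.26 to 0.32). The ATPases gave 0.22 (0.17 to 0.27), the non-ATPase subunits 0.01 (-0.02 to 0.04), the alpha ring -0.02 (-0.05 to 0.01) and the activators -0.20 (-0.24 to -0.17). Psmb7 (-0.23) and Psmc1 (-0.17) lay below 0 in groups whose sums lay above it. Of the 4 activators, Psme4 (-0.67) was the 1 below 0. Each of these ratios but that of Psme4 lay clearly above that of the median gene, -0.68. Psme4 was level with the median gene, which its interval (-0.73 to -0.62) held. For comparison, the median was -0.16 over 88 measured ribosomal protein genes, 0.06 over 76 nuclear oxidative phosphorylation genes and -0.19 over 16 vacuolar ATPase genes.

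Among the catalytic subunits, Psmb6 (caspase-like site, chr11:70525367-70527858, plus strand, GRCm38) had the largest age ratio. It stood at 20.05 (18.8 to 21.4) CPM in young and 36.9 (35.6 to 38.3) CPM in old neutrophil-like cells, a log2 ratio of 0.85. Psmb5 (chymotrypsin-like site, chr14:54614119-54618022, minus strand) gave 0.43 and Psmb7 (trypsin-like site, chr2:38588036-38644087, minus strand) -0.23, so the 3 catalytic subunits did not share a direction. The Psmb6 ratio was not uniform among neutrophil-like cells. It was 0.48 in cells low in granule RNA, 0.47 in the interferon cluster 2 and -0.46 in cluster 0, where old cells had 14.7 CPM from 25 UMIs and young cells 20.6 CPM.

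Across classes, Psmb5 stood at 47.997 against 65.2 CPM in young and old neutrophil-like cells, 107 against 114 in non-classical monocyte-like, 124 against 133 in T cell-like and 92.5 against 79.9 in B cell-like cells. It reached 191 against 231 in platelet-like and 1.73 against 4.34 in erythroid cell-like cells, with 111 in young NK cell-like, 182 in old classical monocyte-like and 279 in old progenitor-like cells. Psmb5 was thus highest in platelet-like cells in the young library. Psmb6 stood at 20.05 against 36.9 CPM in young and old neutrophil-like cells, 79.3 against 76.1 in non-classical monocyte-like, 87.4 against 93.6 in T cell-like and 86.5 against 65.1 in B cell-like cells. It stood at 45.5 against 48.5 in platelet-like and 0.866 against 3.72 in erythroid cell-like cells, with 104 in young NK cell-like, 128 in old classical monocyte-like and 216 in old progenitor-like cells. Neutrophil-like cells had less Psmb6 than each class but the erythroid one. Psmb7 stood at 32.9 against 28.001 CPM in young and old neutrophil-like cells, 65.04 against 49.8 in non-classical monocyte-like, 65.7 against 49.6 in T cell-like and 47.4 against 46.2 in B cell-like cells. The values were 43.2 against 57.6 in platelet-like and 0 against 2.48 in erythroid cell-like cells, with 57.1 in young NK cell-like, 74.01 in old classical monocyte-like and 118 in old progenitor-like cells. The intervals of Psmb7 in young non-classical monocyte-like, T cell-like and NK cell-like cells overlapped. In young erythroid cell-like cells it had 0 UMIs, which allows up to 2.597 CPM (3 counts).

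Promoter sequence was available for 36 of the 43 members (RefSeq, build GRCm38.p6, 39 windows from 250 bases before to 50 after a start). Only the 250 bases before a start were searched, in members and in all windows. The antioxidant response element core TGACNNNGC is the kind of site bound by the NRF family, known regulators of proteasome genes. Searched on both strands, it occurred in 5 of 39 member windows (12.8%) and in 10.2% of all 32851 windows. Of the 5, Psmb5, Psmb6 and Psmd9 held it within 50 bases before the start; they are shown here because Psmb5 and Psmb6 are catalytic subunits with the age ratios given above. Capitals mark the match, 5′ to 3′ on the gene's strand.
Psmb5: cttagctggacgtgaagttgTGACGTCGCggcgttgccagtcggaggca
Psmb6: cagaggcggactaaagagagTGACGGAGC
Psmd9: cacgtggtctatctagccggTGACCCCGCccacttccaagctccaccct
They lie at chr14:54618014-54618062, minus strand (Psmb5), chr11:70525328-70525356, plus strand (Psmb6) and chr5:123228139-123228187, plus strand (Psmd9), with the match 47, 9 and 31 bases before the start. The others, Psmc6 and Psmd12, held it 227 and 247 bases before the start. In neutrophil-like cells the age ratios of the 5 were 0.43 (Psmb5), 0.85 (Psmb6), 0.08 (Psmc6), -0.21 (Psmd12) and 0.16 (Psmd9), thus in both directions. CCAAT occurred in 30.8% of member windows and 33.8% of all, and TATAAA in 7.69% and 12.4%. A match is a run of letters and shows no binding.

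Of the alpha ring genes, whose products gate the core, Psma3 (chr12:70974621-70996347, plus strand) was the 1 counted as lower in old neutrophil-like cells. It stood at 93.7 (90.9 to 96.6) CPM in young and 61.04 (59.3 to 62.8) CPM in old, a log2 ratio of -0.61. Relative to the median gene Psma3 was at 0.07, and its interval (-0.68 to -0.56) did not exclude the median gene. Its annotated body overlaps 3110056K07Rik on the other strand. In clusters 0 and 2 the difference was smaller, with 94.97 in young and 94.9 in old in cluster 0. In cluster 2 it was 100.2 in young and 89.95 in old. These clusters held 494 and 242 of the 8572 old neutrophil-like cells, and values in the other clusters are not reported here. Psma2 had the highest ratio of the group, 0.27; it shares its strand with the overlapping AW209491, so its counts are uncertain. Psma2 stood at 77.2 against 93.2 CPM in young and old neutrophil-like cells, 148 against 131 in non-classical monocyte-like, 191 against 180.1 in T cell-like and 129 against 116 in B cell-like cells. It stood at 93.2 against 74.5 in platelet-like and 3.46 against 8.99 in erythroid cell-like cells, with 169 in young NK cell-like, 197 in old classical monocyte-like and 282 in old progenitor-like cells. Psma3 stood at 93.7 against 61.04 CPM in young and old neutrophil-like cells, 153 against 135 in non-classical monocyte-like, 199.9 against 192 in T cell-like and 165 against 153 in B cell-like cells. The level was 65.9 against 53.04 in platelet-like and 4.33 against 5.27 in erythroid cell-like cells, with 159 in young NK cell-like, 192 in old classical monocyte-like and 288 in old progenitor-like cells. Both were highest in progenitor-like cells in the old library and in T cell-like cells in the young. The other alpha genes had age ratios between -0.15 (Psma6) and 0.22 (Psma5). Of the non-catalytic beta subunits, Psmb1, Psmb2, Psmb3 and Psmb4 gave 0.10, 0.08, 0.33 and 0.48.

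The ATPases, the unfolding motor, had age ratios from -0.17 (Psmc1) to 0.45 (Psmc5). Among ATPases whose mean over the ages reached 20 CPM, Psmc3 had the highest and Psmc6 the lowest ratio, at 0.44 and 0.08. Psmc3 stood at 18.8 against 25.9 CPM in young and old neutrophil-like cells, 63.4 against 58.1 in non-classical monocyte-like, 84.5 against 68.1 in T cell-like and 51.7 against 64.4 in B cell-like cells. It stood at 116 against 82.4 in platelet-like and 0.866 against 2.17 in erythroid cell-like cells, with 78.5 in young NK cell-like, 82.1 in old classical monocyte-like and 189 in old progenitor-like cells. Psmc3 was among the genes higher in platelet-like cells, from 51 young and 73 old UMIs. Psmc6 stood at 29.9 against 31.5 CPM in young and old neutrophil-like cells, 60.4 against 50.2 in non-classical monocyte-like, 75.4 against 69.6 in T cell-like and 57.6 against 64.4 in B cell-like cells. It was at 20.5 against 21.4 in platelet-like and 3.46 against 3.72 in erythroid cell-like cells, with 79.5 in young NK cell-like, 75.1 in old classical monocyte-like and 132 in old progenitor-like cells. Unlike Psmc3, Psmc6 was not counted as higher in platelet-like cells.

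Among the non-ATPase subunits, Psmd6 (a scaffold of the lid, chr14:14112174-14120984, minus strand) and Psmd2 (a large base subunit that docks ubiquitin-like domains, chr16:20651652-20663414, plus strand) were higher in old. Psmd6 stood at 10.7 (9.74 to 11.7) CPM in young and 22.01 (20.96 to 23.1) CPM in old neutrophil-like cells, a log2 ratio of 0.98. Psmd2 stood at 11.6 (10.6 to 12.6) CPM in young and 20.3 (19.3 to 21.3) CPM in old, a ratio of 0.76. Among granule-low cells the ratios were 0.47 and 0.52, under 1.5-fold. Psmd4, Psmd11, Psmd12 and Psmd13 were on the other side, at -0.29, -0.34, -0.21 and -0.26; Psmd12 overlaps Gm11722 on its own strand. Psmd1, Psmd3, Psmd7 and Psmd14 gave 0.24, 0.20, -0.07 and 0.12. Psmd14 encodes the lid's deubiquitinase.

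Psmd8 and Psmd11, both lid subunits, had the highest and lowest age ratio among non-ATPase genes at 20 CPM or more. Psmd8 stood at 62.7 against 73.1 CPM in young and old neutrophil-like cells, 124 against 117 in non-classical monocyte-like, 142 against 104 in T cell-like and 80.3 against 82.7 in B cell-like cells. It stood at 145 against 158 in platelet-like and 5.19 against 11.5 in erythroid cell-like cells, with 105 in young NK cell-like, 211 in old classical monocyte-like and 271 in old progenitor-like cells. Psmd11 stood at 33.5 against 26.3 CPM in young and old neutrophil-like cells, 77.5 against 72.1 in non-classical monocyte-like, 91.9 against 82.9 in T cell-like and 99.03 against 67.2 in B cell-like cells. It reached 239 against 181 in platelet-like and 0.866 against 3.72 in erythroid cell-like cells, with 88.6 in young NK cell-like, 69.1 in old classical monocyte-like and 101 in old progenitor-like cells. Psmd11 was highest in platelet-like cells in both libraries, from 105 and 160 UMIs. Psmd4, the ubiquitin receptor, shared that pattern, at 479.6 (417 to 549) CPM in young and 265 (232 to 301) CPM in old platelet-like cells, and 70.4 in young and 57.3 in old neutrophil-like cells; it was chosen after its values were seen. Over neutrophil-like cells, 15 of 40 members were higher and 8 lower in young platelet-like cells (24.3% and 60.4% of all genes), and 12 and 9 of 38 in old (26.3% and 53.5%). Psmb3, a non-catalytic core subunit chosen after its values were seen, lay on the other side, with 11.4 in young and 51.9 in old platelet-like cells and 94.02 in young and 119 in old neutrophil-like cells. Platelet-like barcodes were shallow, with a median of 830.0 and 854 UMIs.

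The cap's assembly chaperones Psmd5, Psmd9 and Psmd10 had age ratios of -0.50, 0.16 and 0.25. The interval of Psmd5 (-0.71 to -0.38) held the ratio of the median gene. Psmd10 stood at 19.7 against 23.6 CPM in young and old neutrophil-like cells, 23.3 against 25.8 in non-classical monocyte-like, 26.3 against 26.1 in T cell-like and 22.4 against 18.9 in B cell-like cells. It stood at 13.6 against 14.7 in platelet-like and 0 against 2.48 in erythroid cell-like cells, with 38.4 in young NK cell-like, 25.2 in old classical monocyte-like and 32.4 in old progenitor-like cells. Among leukocyte classes, Psmd10 was more than 1.5-fold above neutrophil-like cells only in young NK cell-like cells, and in young erythroid cell-like cells it had 0 UMIs. All 4 chaperones of the core had lower values in neutrophil-like than in T cell-like cells in both libraries, as did most members. At 1.5-fold, 54.7% of all genes tested in young and 64.3% in old were higher in T cell-like cells. Psmg2 had 29 and 32 UMIs in young and old neutrophil-like cells, 0.649 (0.435 to 0.932) and 0.428 (0.293 to 0.604) CPM. In T cell-like cells it stood at 29.1 (21.7 to 38.3) and 31.7 (24.3 to 40.7) CPM, in B cell-like cells at 23.7 against 30.8 and in non-classical monocyte-like cells at 11.04 against 9.54. Psmg4 followed, with 3.27 against 2.6999 CPM in neutrophil-like, 35.4 against 53.7 in T cell-like, 50.01 against 54.6 in B cell-like and 27.9 against 26.9 in non-classical monocyte-like cells. Both genes were chosen after their values were seen. Psmg1 stood at 2.44 in young and 1.804 in old neutrophil-like and at 14.8 in young and 15.9 in old T cell-like cells. Psmg3, the only one at 5 CPM or more in neutrophil-like cells, stood at 8.01 in young and 8.15 in old and at 22.3 in young and 20.98 in old T cell-like cells.

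The activators divided. Psme1 and Psme2 encode the interferon-inducible PA28 alpha and beta subunits, Psme3 the nuclear PA28 gamma and Psme4 the activator PA200. Psme1 (chr14:55578123-55581529, plus strand) stood at 74.98 (72.5 to 77.6) CPM in young and 84.5 (82.4 to 86.6) CPM in old neutrophil-like cells, and Psme2 (chr14:55587441-55591113, minus strand) at 50.8 (48.7 to 52.9) CPM in young and 52.9 (51.3 to 54.6) CPM in old. Neither passed 1.5-fold, with ratios of 0.17 and 0.06. The retrocopy Psme2b had 686 young and 400 old UMIs in the same cells against 2269 and 3957 for Psme2, so reads could be split between them and Psme2 values are uncertain. Psme4 (chr11:30771726-30880361, plus strand) stood at 122 (119 to 126) CPM in young and 76.5 (74.5 to 78.5) CPM in old, a ratio of -0.67, which is close to the shift of the median gene.

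Psme1 stood at 74.98 against 84.5 CPM in young and old neutrophil-like cells, 193 against 153 in non-classical monocyte-like, 313 against 298 in T cell-like and 188 against 169 in B cell-like cells. It stood at 97.7 against 104 in platelet-like and 4.33 against 8.37 in erythroid cell-like cells, with 259.97 in young NK cell-like, 201 in old classical monocyte-like and 228 in old progenitor-like cells. Psme2 stood at 50.8 against 52.9 CPM in young and old neutrophil-like cells, 111 against 88.2 in non-classical monocyte-like, 214 against 176 in T cell-like and 87.5 against 83.4 in B cell-like cells. The values were 25.004 against 29.3 in platelet-like and 0.866 against 2.79 in erythroid cell-like cells, with 123 in young NK cell-like, 129 in old classical monocyte-like and 188 in old progenitor-like cells. Both were highest in T cell-like cells in the young library. Psme4 stood at 122 against 76.5 CPM in young and old neutrophil-like cells, 143 against 128 in non-classical monocyte-like, 91.4 against 93.1 in T cell-like and 102 against 116 in B cell-like cells. It stood at 56.8 against 57.6 in platelet-like and 4.33 against 5.27 in erythroid cell-like cells, with 84.9 in young NK cell-like, 100.1 in old classical monocyte-like and 97.6 in old progenitor-like cells. For Psme4, only non-classical monocyte-like cells lay above neutrophil-like cells in the young library, while in the old library all 5 other leukocyte classes did. Psme3 stood at 11.1 against 11.3 CPM in young and old neutrophil-like cells, 30.3 against 28.4 in non-classical monocyte-like, 23.4 against 29.2 in T cell-like and 22.04 against 24.5 in B cell-like cells. It stood at 11.4 against 12.4 in platelet-like and 84.8 against 79.02 in erythroid cell-like cells, with 24.02 in young NK cell-like, 24.8 in old classical monocyte-like and 36.6 in old progenitor-like cells. Psme3 (chr11:101316213-101323537, plus strand) was thus highest in erythroid cell-like cells in both libraries, from 98 and 255 UMIs, at 84.8 (68.9 to 103) and 79.02 (69.6 to 89.3) CPM. Against this, 34 of 36 members were lower there than in neutrophil-like cells in each library (97.1% and 95.8% of all genes) and 2 of 36 were higher (1.9% and 2.43%), Psme3 and the inhibitor Psmf1. Psmf1 stood at 3.42 against 4.85 CPM in young and old neutrophil-like cells, 16.9 against 12.4 in non-classical monocyte-like, 25.7 against 21.5 in T cell-like and 22.4 against 12.6 in B cell-like cells. It stood at 6.82 against 9.03 in platelet-like and 13.9 against 10.8 in erythroid cell-like cells, with 27.8 in young NK cell-like, 15.2 in old classical monocyte-like and 15.4 in old progenitor-like cells. Psmf1 and Psme3 were the only members lowest in neutrophil-like cells, over the named classes of each library. Against platelet-like cells this order was not resolved. Psmf1 had 3 young and 8 old UMIs there, with intervals of 1.41 to 19.9 and 3.90 to 17.8 CPM. Psme3 was close to level, at 11.1 against 11.4 in young and 11.3 against 12.4 in old.

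A cluster of neutrophil-like cells led by interferon-stimulated genes (cluster 2, 1808 young and 242 old cells) carried more Psme1 and Psme2 than cluster 0, the main cluster of the young library (7588 young and 494 old cells). In young cells Psme1 stood at 94.97 (88.5 to 102) against 70.9 (68.1 to 73.9) CPM and Psme2 at 74.4 (68.7 to 80.5) against 45.3 (42.996 to 47.6). In old cells Psme1 stood at 136 (114 to 160.5) against 65.4 (53.8 to 78.8) and Psme2 at 97.8 (79.6 to 119) against 49.5 (39.5 to 61.3). The immunoproteasome genes lay on the same side: the log2 ratios in young and old were 0.92 and 0.85 for Psmb8, 0.68 and 0.90 for Psmb9, and 0.19 and 0.63 for Psmb10. For Psme1 and Psme2 they were 0.42 and 1.04, and 0.71 and 0.97. These members and comparison genes were kept out of the genes that formed the clusters. Most other members were within 1.5-fold. In young, 1 of 39 was higher (2.64% of all genes), Psme2, and the median member stood at -0.13. In old cells 3 of 39 were higher (6.95%), Psme1, Psme2 and Psmb6, and 6 lower (18.9%). From cluster 0 to cluster 2 the 8 interferon markers, which name the cluster, went from 808 to 3925 CPM in young and 864 to 4839 in old. The 10 neutrophil markers were at 115175 and 118551 CPM in young and at 131956 and 174024 in old.

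**Figure D4:**
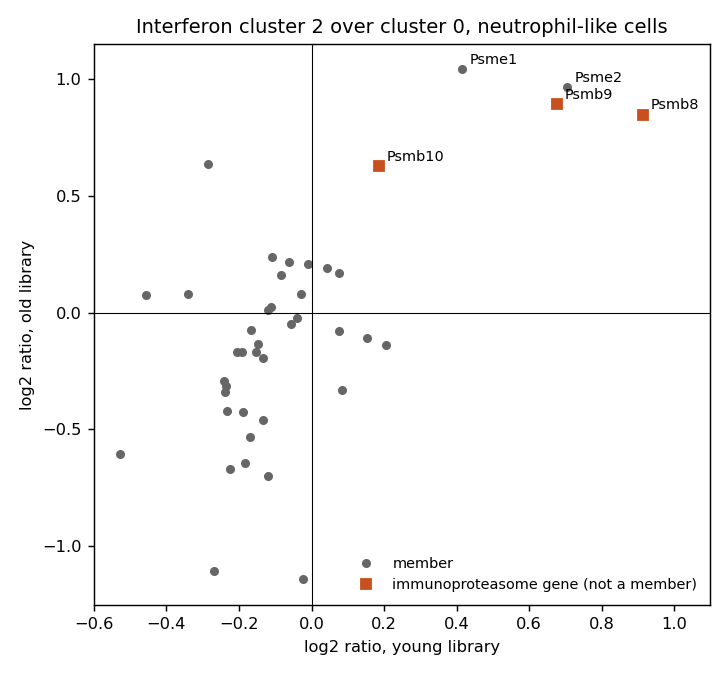
Each point is a gene; the axes give the log2 ratio of CPM + 1 in interferon cluster 2 over cluster 0 of neutrophil-like cells, young library on x and old library on y. Psme1, Psme2 and the 3 immunoproteasome genes lie above 0 on both axes, while the median member lies at -0.13 on each.

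The core of the interferon-stimulated response element (GAAA, any 2 bases, GAAA), a search on both strands added after these values were seen, occurred in 3 of 39 member windows (7.69%) and in 2.98% of all windows. The 3 are shown because none of them belongs to Psme1 or Psme2. Here too only the 250 bases before a start were searched. Capitals mark the match, 5′ to 3′ on the gene's strand.
Psmb3: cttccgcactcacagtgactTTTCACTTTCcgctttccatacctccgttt
Psmd4: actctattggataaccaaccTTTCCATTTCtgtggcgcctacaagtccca
Psmd9: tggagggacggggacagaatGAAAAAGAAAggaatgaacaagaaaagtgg
They lie at chr11:97703251-97703300, plus strand (Psmb3), chr3:95042665-95042714, minus strand (Psmd4) and chr5:123228011-123228060, plus strand (Psmd9), and the matches start 163, 80 and 159 bases before the start site. In the young interferon cluster the ratios of these genes were -0.24 (Psmb3), -0.13 (Psmd4) and -0.01 (Psmd9), none of them higher. The gamma-activated sequence core TTCNNNGAA, also added, occurred in 1 member window (2.56%), that of Psmg1, in the window of Psmb8 and in 7.02% of all windows.

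The members were high in progenitor-like cells and differed far less among the granule ranges of neutrophil-like cells given below. The 64 progenitor-like cells of the old library carried 7 of 7 progenitor markers, among them Mpo, Elane, Mki67 and Top2a. They also carried 7 of 8 classical monocyte markers, so their lineage is not settled by these lists. Their summed members gave 2.16 (2.14 to 2.19) on the log2 scale over neutrophil-like cells, a fold of 4.47. In this comparison 41 of 43 members were higher (62.4% of all genes). Over cluster 3, the immature neutrophil-like cluster of the old library (1961 cells), 42 of 43 were higher (68.0%), with a summed ratio of 2.07 (2.05 to 2.10). Both comparisons share the progenitor-like cells. The core chaperones had the largest group ratio over neutrophil-like cells, 3.10 (2.88 to 3.32), then the ATPases with 2.55 (2.47 to 2.63) and the alpha ring with 2.38 (2.33 to 2.43), and the activators the smallest with 1.29 (1.1991 to 1.38). Psma4 and Psma5 gave 3.23 and 3.25, Psmd7 3.55, Psmd10 0.44 and Psme4 0.35. Ribosomal protein genes had a median of 2.84 and nuclear oxidative phosphorylation genes 2.13 in the same comparison.

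An unnamed cluster of 43 old cells (cluster 23), led by Fcnb, Top2a and Mki67 with 8 of 8 immature neutrophil markers detected, lay between. Its members summed to 2728 (2632 to 2828) CPM, against 1669 (1654 to 1683) in cluster 3, and 29 of 41 were higher over cluster 3 (36.9% of all genes) and 1 lower (17.3%), Psme4. The ATPases gave 1.04 (0.87 to 1.1996), the alpha ring 0.82 (0.72 to 0.92), the beta ring 0.76 (0.66 to 0.86) and the activators -0.08 (-0.27 to 0.11). The interval of the activators held 0, while those of the rings and the ATPases lay above it.

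**Figure D5:**
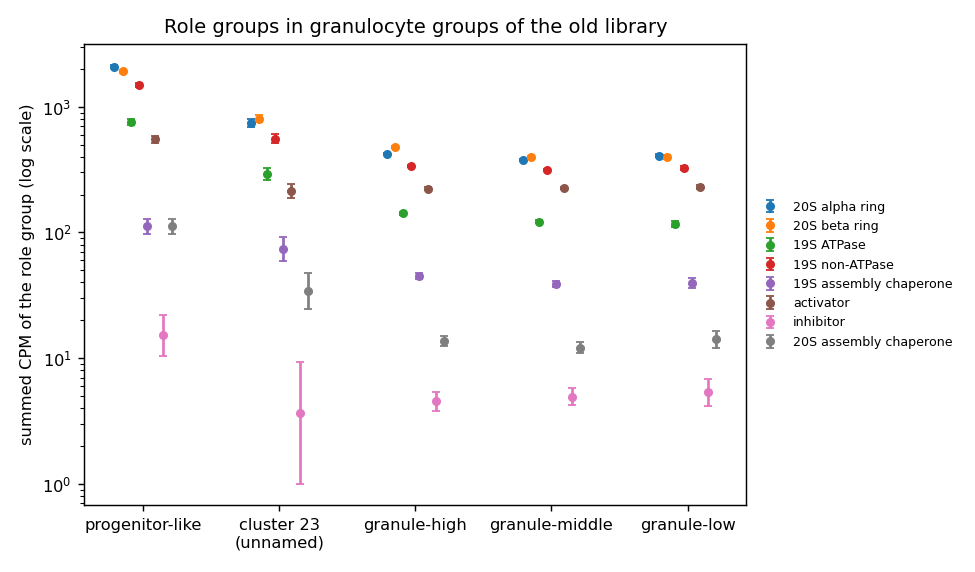
Summed CPM of each role group (y axis, log scale) in the progenitor-like cells, the unnamed cluster 23 and the neutrophil-like cells high, middle or low in granule RNA, all of the old library, with exact Poisson 95% intervals. Every role group is highest in progenitor-like cells, and the 3 granule ranges lie close together.

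Neutrophil-like cells were split by their share of UMIs from Ltf, Camp, Ngp, Lcn2, Chil3, Ifitm6, Cd177 and Serpinb1a, genes of granules that are transcribed in immature neutrophils: low under 0.5%, high from 2%. These are ranges of a score and not cell types, and 1161 old and 440 young cells lay within 20% of the lower limit. The low, middle and high ranges held 9435, 432 and 73 young cells and 2563, 4017 and 1992 old cells. In old cells the members summed to 1539 (1517 to 1562), 1496 (1483 to 1509) and 1665 (1650.3 to 1679.5) CPM, and high over low gave 0.11 (0.09 to 0.14). In young cells they summed to 1522 (1509.95 to 1534), 1295 (1250.5 to 1341) and 1504 (1421 to 1590.3), and the ratio was -0.02 (-0.10 to 0.06). The difference between these ratios was not tested.

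In the old library 5 of 39 members were higher in granule-high cells (10.7% of all genes): Psmd6 (0.85), Psmd1 (0.82), Psmd14 (0.81), Psmb6 (0.72) and Psmc3 (0.67). Psme4 alone was lower (-0.75, 47.4% of all genes). Psmb6 went from 28.1 in granule-low to 31.2 and 46.8 CPM, and Psme4 went from 99.7 to 84.1 and 58.8. In the young library, with 73 granule-high cells, 5 were higher (15.1%) and 4 lower (47.0%); Psmb6 gave 0.76, Psmd6 0.90 and Psme4 -0.34. Relative to the median gene of the contrast (-0.67 in old), 33 of 39 members were higher in old granule-high cells (29.1%). S100a8 and S100a9 took 36.5% of UMIs in old granule-high and 17.6% in old granule-low cells; without them and the granule genes the summed ratio was 0.63 in old and 0.53 in young.

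Age ratios within ranges and clusters differed among themselves. Among granule-low cells 0 of 39 members were higher (4.23% of all genes) and 0 lower (18.1%), and the summed ratio was 0.02 (-0.01 to 0.04). In cluster 0 it was 0.09 (0.04 to 0.15), with 1 of 40 higher (4.72%), Psmf1, and 0 lower (7.39%). In cluster 2 it was 0.10 (0.02 to 0.17), with 2 of 38 higher (6.46%), Psma4 and Psmd6, and 2 lower (18.3%), Psmd1 and Psmd14. In granule-middle cells it was 0.21 (0.16 to 0.26), with 6 of 39 higher (7.02%), among them Psmb6, Psmd6 and Psmd2, and 0 lower (27.2%). In granule-high cells, 73 of them young, it was 0.15 (0.07 to 0.23), with 5 of 39 higher (8.25%) and 1 lower (29.1%), Psme4. Psmb6 was within 1.5-fold there, at 0.43. Granule-high cells made up 1992 of 8572 old and 73 of 9940 young neutrophil-like cells, and the part of this mix in the ratio over all neutrophil-like cells was not tested beyond these ranges. Outside neutrophils, the summed ratio was -0.12 (-0.15 to -0.08) in non-classical monocyte-like, -0.09 (-0.14 to -0.05) in T cell-like and -0.07 (-0.12 to -0.01) in B cell-like cells. There, 0, 1 and 0 members were higher (4.36%, 11.3% and 8.19% of all genes) and 0, 1 and 3 lower (8.85%, 13.3% and 12.1%).

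Markers of other cells were present in the neutrophil-like sums. Of those given here, the erythroid markers were highest, above the 1509 and 1571 CPM of the summed members in young and old. The 9 T cell markers summed to 24.7 CPM in young and 11.04 in old neutrophil-like cells, the 8 B cell markers to 150.4 and 52.9, the 9 platelet markers to 110.4 and 176.1 and the 9 erythroid markers to 1937 and 2022. The 7 progenitor markers summed to 7.90 and 15.6 and the 8 classical monocyte markers to 123 and 669.8. In 217 young and 349 old neutrophil-like cells, T, NK, B, platelet or erythroid markers took 0.5% or more of the UMIs, and leaving them out gave a summed age ratio of 0.06. Mitochondrial UMIs were 0.218% in young and 0.774% in old.

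Of the pathway's genes outside the 43, the immunoproteasome had ratios below 0 in old over young neutrophil-like cells, within 1.5-fold. Psmb8 stood at 119 against 79.6 CPM (log2 ratio -0.57), Psmb9 at 97.4 against 77.2 (-0.33) and Psmb10 at 11.7 against 8.05 (-0.49), against members with a median of 0.12. Of 8 other proteasome parts and factors measured, 1 was higher, the core maturation factor Pomp (47.7 against 97.02 CPM), and 3 lower, among them Zfand5, which activates the proteasome (298 against 134), and Ecpas, a proteasome adaptor (90.7 against 49.6). Of 4 deubiquitinases and shuttle receptors, 1 was lower, the cap's deubiquitinase Uchl5 (54.8 against 22.99 CPM, -1.22); the protease Ddi2 gave 0.41 and the shuttle receptor Ubqln1 -0.31. Of 9 ubiquitin, E1 and p97 genes, 1 was lower, the E1 enzyme Uba6 (23.3 against 12.8); the E1 gene Uba1 gave -0.54. Of 5 regulators of proteasome genes, 3 were lower: Nfe2l2, which encodes NRF2 (346 against 203 CPM), Ngly1, the glycanase that processes NRF1 (110.4 against 59.8), and Mafk (19.5 against 12.4). Across all genes 51.1% were lower in the same comparison. Psmb8 was the only one of the 3 immunoproteasome genes lower in old granule-high over granule-low cells (-0.71, with Psmb9 -0.56 and Psmb10 -0.17). Within clusters, the 3 genes summed to 204 CPM in young and 258 in old cells of cluster 0. They summed to 352 and 470 in cluster 2 and to 169 and 219 in cluster 5. In clusters 3 (129 and 145) and 1 (177 and 161) the intervals overlapped. The part of the clusters in the ratios over all neutrophil-like cells was not tested.

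Across the 14 sums of a class in a library with 100 or more cells, the genes outside the members whose log2 level was most like the summed members were Ndufb3 (Pearson r = 0.994), Ndufa6 (0.992), Mrps24 (0.991), Ndufv2 (0.989), Tmem234 (0.989), Slc25a3 (0.989), Lamtor5 (0.988), Nsa2 (0.988), Ndufs7 (0.988) and Tmem167 (0.987), of 2915 candidates. Ndufb3, Ndufa6, Ndufv2 and Ndufs7 encode subunits of respiratory complex I. These r are a description: the points share libraries and depth, and erythroid cell-like sums lie far below the rest. The members themselves had a median r of 0.950, with 42 of 43 above 0 and the lowest, -0.62, for Psme3. Psmb8, Psmb9 and Psmb10 gave 0.869, 0.808 and 0.864.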

How the data were processed

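The deposited files hold the authors' raw UMI counts per gene and barcode, made with Cell Ranger 7.2.0 per the file headers and aligned to mm10 per the submitters' processing notes; whether introns or strand were used in counting is not given in the sources used here. Libraries were grouped by labelled age. The cell filter asked for 200 genes or more and a mitochondrial share of UMIs up to 20%, which left 12921 young and 13517 old barcodes. Counts were scaled to 10000 UMIs, log-transformed, reduced to 2000 variable genes and 30 principal components and clustered (scanpy 1.11.5, Leiden resolution 0.6) into 25 clusters, named from 16 marker lists. The naming limits were set after the data were seen, and some clusters stayed unnamed. No doublet caller was run; cells with markers of other types were left out as an alternative.

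UMIs were summed per class and library as CPM. Log2 ratios of single genes carry 1 CPM in both terms; summed ratios carry none. No test was made. Named genes were the catalytic subunits, activators and inhibitor, the measured member with the highest and lowest age ratio per role group at 20 CPM or more, and up to 3 genes at 10 CPM or more per list of other genes. Some genes that this rule names are not reported here. The members and lists were chosen with earlier results of these data known. Alternatives were other cell filters, a Leiden resolution of 1.0, equal weight per cell, thinning to 1000 UMIs, other totals, floors and pseudocounts, centring on the median gene, and other sets of cells. The calculation was tested on simulated data.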

Additional observations from a re-analysis of the deposited data

Results flagged for a closer look

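Member UMIs were also present in the barcodes that the cell filter removed, which enter no comparison. The 678 removed young barcodes held 327 member UMIs, or 101.6 CPM (90.9 to 113, exact Poisson 95% interval, counting error only), above the 0.932 CPM that a count of 0 allows. The 817 removed old barcodes held 409 member UMIs, or 172.8 CPM (156 to 190.3), above 1.27 CPM. Both levels were below those of neutrophil-like cells, 1509 and 1571 CPM, and of erythroid cell-like cells, 177 and 264 CPM.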

How the results depend on the processing

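No paired analysis was possible because each age has 1 library. Across the alternatives, 44 values stayed within the counting interval or, for a count, within 1.5 times, and 40 moved by more; the interval covers counting error only, so a small shift counts as a move. No ratio of 1.5-fold or more changed sign, but the young granule-high over granule-low ratio did. Shared clusters are those with 200 or more neutrophil-like cells in each library, clusters 0 and 2. They held 494 and 242 of the 8572 old neutrophil-like cells, so values within them do not cover the whole class. The summed age ratio of neutrophil-like cells (0.06) was 0.0761 at Leiden resolution 1.0, 0.0049 with equal weight per cell, 0.0057 after thinning to 1000 UMIs, 0.46 without S100a8, S100a9 and granule genes in the total, 0.74 relative to the median gene and 0.0949 as the mean within shared clusters. Among alternatives chosen after seeing the data, it was 0.0165 in granule-low cells. It was 0.0922 with the unnamed clusters that best matched a neutrophil marker list, whose leading genes were of another class or at low level. The count of members higher in old (3) was 16 without S100a8, S100a9 and granule genes (14.5% of all genes), 29 relative to the median gene (23.7%), 0 within shared clusters (3.59%), 1 of 24 at a floor of 20 CPM (6.52%) and 0 in granule-low cells (4.23%). The count lower in old (2) was 0 with equal weight (44% of all genes), without S100a8, S100a9 and granule genes (26.8%), relative to the median gene (12.6%), within shared clusters (10.3%) and in granule-low cells (18.1%), and 1 with a pseudocount of 5 CPM (43.1%) or with the unnamed clusters (48.6%). Granule-high over granule-low cells in young (-0.02, interval -0.10 to 0.06) gave -0.30 (-0.60 to -0.01) after thinning. The young ratio was 0.53 without S100a8, S100a9 and granule genes and 0.01 with limits of 0.2% and 5%. In old (0.11) it was 0.15 under the stricter cell filter (500 genes, 10% mitochondrial UMIs), 0.14 at resolution 1.0, 0.0541 after thinning, 0.63 without S100a8, S100a9 and granule genes and 0.15 with limits of 0.2% and 5%. Non-classical monocyte-like over neutrophil-like cells gave 1.16 with no cell filter, 1.26 without mitochondrial and ribosomal protein genes and 0.99 without S100a8, S100a9 and granule genes in young (1.13). In old (0.96) it was 0.93 under the stricter filter, 1.05 with equal weight, 0.997 after thinning, 1.07 without mitochondrial and ribosomal protein genes and 0.54 without S100a8, S100a9 and granule genes. Progenitor-like over neutrophil-like cells (2.16), added after seeing the data, gave 1.99 with no filter, 2.06 under the stricter filter, 2.05 after thinning, 2.42 without mitochondrial and ribosomal protein genes and 1.63 without S100a8, S100a9 and granule genes. Beyond what each setting takes out, the cause was not tested. With 1 library per age, age, animal, batch and depth cannot be told apart.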

Other observations

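Clusters that stayed unnamed also carried member RNA and entered no comparison with neutrophil-like cells. Cluster 11, led by the MHC class II genes H2-Ab1 and H2-Aa with Flt3 and Cd209a (185 young and 328 old cells), summed to 4524 (4444 to 4604) CPM in young and 4759.8 (4697 to 4823) CPM in old. Its levels of Psme1 were 316 (295 to 338) and 292 (277 to 308) CPM, and those of Psmb8 374 (352 to 398) and 430.3 (412 to 449.6) CPM. Cluster 4, with 10 of 10 neutrophil markers but led by platelet genes such as Itga2b (847 young and 960 old cells), summed to 1511 (1474 to 1549) and 1503 (1473 to 1534) CPM. Cluster 14, with 9 of 10 neutrophil markers but led by globin genes (116 young and 160 old cells), summed to 647 (603 to 694) and 1051 (1007 to 1097) CPM, and held 35.8 (25.9 to 48.2) and 35.7 (28.01 to 44.9) CPM of Psme3, the member highest in erythroid cell-like cells.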
